A study of Cavia porcellus with 12 samples.

Results

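MicroRNA 21 (miR-21) was followed here through every entry that the deposited small RNA tables list under its precursor, hsa-mir-21. Each row of these tables holds 1 read sequence and the position where it starts on a precursor. The 5p and 3p arms of a miRNA therefore appear as separate rows, and so does each of their forms (isomiRs). A row was a member when the last part of its name was exactly hsa-mir-21. This gave 9 distinct entries, of which 7 were among the 1610 entries of the table of DOX 1 h and DMSO 1 h, 7 among the 1335 of the table of DOX 22 h and DMSO 22 h, and 9 among the 4979 of the table of DOX 22 h and DOX 1 h.

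The cells were ventricular cardiomyocytes isolated from hearts of adult Hartley guinea pigs. Doxorubicin (DOX) is an anthracycline that binds DNA and poisons topoisomerase II, and it is given against many tumors and can injure the heart. Cardiomyocytes were exposed to 10 µM DOX or to the vehicle control (DMSO) for 1 h or 22 h, giving 4 groups of 3 samples and 12 samples in all. The comparisons asked how miRNA levels differed between exposed and unexposed cardiomyocytes early and late, and between the 2 exposure times. No source used here says which samples came from separate animals, and reads of guinea pig RNA were named by human precursors. Rows of known miRNAs give a position on the precursor only, so no genome coordinates are given for mir-21.

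MicroRNAs are short RNAs cut from a hairpin precursor, and one strand of the cut duplex is loaded into an Argonaute protein while the other is mostly degraded. The loaded strand pairs with messenger RNAs through its seed, near its 5′ end, and lowers their translation and stability. The miR-21 gene overlaps the protein-coding gene VMP1, its main product is the 5p strand, and in the heart it is known as a stress-responsive miRNA that is high in fibroblasts and has been linked to fibrosis and to survival of cardiomyocytes after injury.

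The 7 forms of the 5p arm began at position 9 of the precursor as the row names give it, and differed in where they ended. They are shown because the ends are what the comparisons turned on. Lower case marks the part that all 7 share and capitals mark the bases beyond it.
5p, 15 nt: gcttatcagactgat
5p, 16 nt: gcttatcagactgatG
5p, 17 nt: gcttatcagactgatGT
5p, 18 nt: gcttatcagactgatGTT
5p, 19 nt: gcttatcagactgatGTTG
5p, 20 nt: gcttatcagactgatGTTGA
5p, 21 nt: gcttatcagactgatGTTGAC

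The 3p arm, the strand that is mostly degraded, had 2 forms that began at position 47 and differed by the last base, again in capitals.
3p, 19 nt: acagcagtcgatgggctgt
3p, 20 nt: acagcagtcgatgggctgtC

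Every shorter form was the start of the longest one of its arm, so all listed variation of mir-21 lay at the 3′ end. The letters GCTTAT opened 7 of the 7 5p forms. The seed by which miR-21-5p is known has 1 more base before them: AGCTTAT was found in 0 of the 2016 distinct sequences with a mean above 0, on either strand, while GCTTAT was found in 12 (0.595%), the 7 members included. The same was seen in the let-7 family, where GAGGTAG, the seed in full, was in 1 of 111 distinct sequences and AGGTAG opened 66 of them. No mir-21 form with another 5′ end, which would shift the seed, was listed in either arm. The longest sequence of any entry was 21 nt (544 of 2345 entries with a sequence), so the 21 nt form of mir-21 stands at the upper limit of the tables. The sources used here do not say whether reads were shortened at either end before they were listed. If they were, the 21 nt form may include longer molecules, and the listed 5′ ends may not be those of the molecules. This was not tested.

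The table of DOX 22 h and DMSO 22 h and the table of DOX 22 h and DOX 1 h each rested on 1 library a side, all replicate 1 of their group, and the DOX 22 h library was shared. Their deposited means, which are reads divided by size factors, were taken back to whole reads for each of these 3 libraries. With 1 library a side there is no replicate check and no test. The intervals given are exact 95% binomial (Clopper-Pearson) intervals that cover counting error only, and differences between cultures are not in them. The listed reads, each sequence counted once, came to 4098346 in DOX 22 h, 3463299 in DMSO 22 h and 5259631 in DOX 1 h. Levels are given as reads per 1000000 listed reads (RPM). A sequence listed under several precursors entered these totals with 1 row, the one of highest mean. Its rows did not always hold equal reads, so the rows left out may hold further reads. The totals and every RPM depend on this choice. The labelled cell type was checked by its miRNAs: the cardiomyocyte list (miR-1, miR-133a, miR-208a, miR-208b and miR-499a precursors, 7 of 7 listed) held 28.5%, 27.5% and 31.5% of the listed reads in DOX 22 h, DMSO 22 h and DOX 1 h. That share counts each sequence once, although mir-1 and mir-133a each had 2 listed precursors. In DOX 22 h mir-1-2 had 581188 reads and mir-1-1 526078. The sequences of mir-143 and mir-145 were not shared in this way, so the shares of the lists are not on an equal footing. Markers of other cells were listed too. The smooth muscle and pericyte pair mir-143 and mir-145 held 23.2% to 28.1%. Nearly all of that was mir-143, with 226534 to 276915 RPM against 3974 to 5067 RPM for mir-145. The endothelial mir-126 held 4.13% to 5.61% and the 4 fibroblast and stromal precursors held 0.155% to 0.157%. The 5 blood cell precursors, none of them at 0, held 0.00937% to 0.0116%. Fewer cells of a type and less RNA per cell cannot be told apart in such samples.

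mir-21 was among the abundant miRNAs of these cardiomyocyte preparations. Its 5p arm had 44577 reads in DOX 22 h (10877 RPM), 37292 in DMSO 22 h (10768 RPM) and 61431 in DOX 1 h (11680 RPM), counting the 6 forms listed in all 3 tables. A predicted precursor lists the same sequences at nearly the same level, and with its entries added the summed level in the table of DOX 22 h and DOX 1 h would be 104083 in place of 52398, so the levels and ranks given here hold for the rows named hsa-mir-21 alone. The 3 levels lay close together, with DOX 1 h the highest. Among 284 arms with distinct leading sequences it ranked 16 in DOX 22 h, 18 in DMSO 22 h and 18 in DOX 1 h. In the summed means of the table of DOX 22 h and DOX 1 h, where it also ranked 16 with 52361, the arms next above it were mir-27a (63724), let-7g (68760) and mir-30e (76616). Those next below it were mir-100 (51969), mir-125b-1 (50447) and let-7i (47192). The order of mir-21, mir-100 and mir-125b-1 was not the same in every library. mir-100 had 10455 RPM in DOX 22 h, below mir-21, but 12684 in DMSO 22 h and 11933 in DOX 1 h, above it. mir-125b-1 had 9591 RPM in DOX 22 h, below mir-21, and 10829 and 12142 in DMSO 22 h and DOX 1 h, above it. miRNA arms differ little in length, so RPM was compared between them without a length correction.

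The summed level of all mir-21 entries, as the authors' normalised means, was 58408 in the table of DOX 1 h and DMSO 1 h, 40804 in that of DOX 22 h and DMSO 22 h and 52398 in that of DOX 22 h and DOX 1 h, which is 0.994%, 0.854% and 0.873% of each table's sum. These tables were normalised separately, so the 3 sums are not a comparison between conditions.

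The 20 nt form was the most abundant in every library. It had 22850 reads in DOX 22 h, 20204 in DMSO 22 h and 32019 in DOX 1 h, or 51.3%, 54.2% and 52.1% of the 5p arm. The 21 nt form, which carries the final C, had 14215, 10202 and 20377 reads, or 31.9%, 27.4% and 33.2%. The 19 nt form had 6694, 6147 and 8067 reads, or 15.02%, 16.5% and 13.1%. These 3 forms together held 98.2%, 98.0% and 98.4% of the arm.

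The shorter forms fell off steeply with each base lost. The 18 nt form had 566 reads in DOX 22 h, 504 in DMSO 22 h and 686 in DOX 1 h. The 17 nt form had 209, 187 and 228, and the 16 nt form had 43, 48 and 54. The 15 nt form was listed only in the table of DOX 22 h and DOX 1 h, with 10 and 13 reads. The table of DOX 22 h and DMSO 22 h has no restored mean under 10.0, so a form missing from it may have been below that level.

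**Figure D1:**
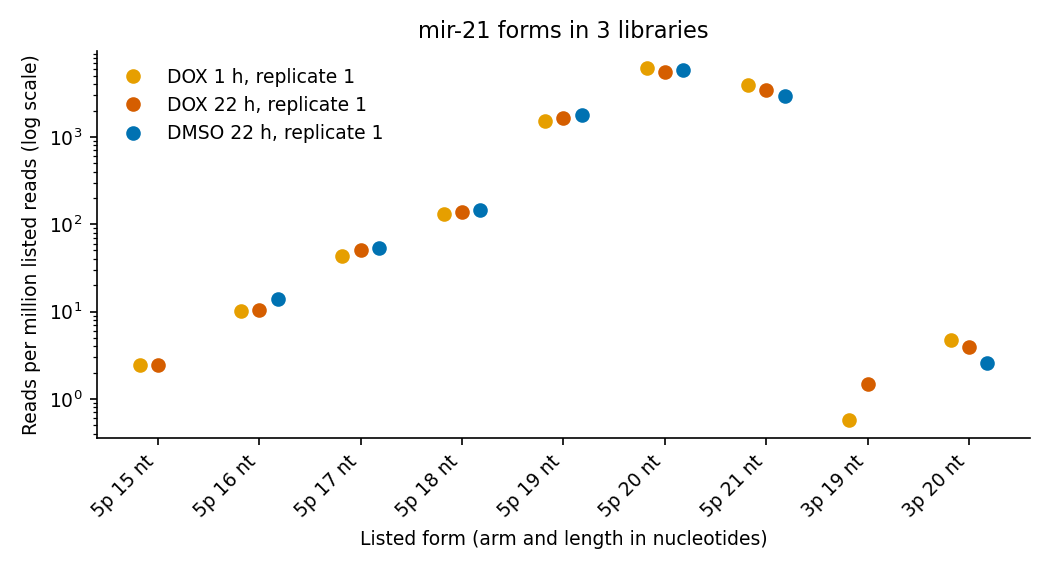
Level of each mir-21 form, in RPM on a log scale, with 1 point for each of the libraries DOX 1 h, DOX 22 h and DMSO 22 h (replicate 1 of each group). The 20 nt form of the 5p arm is the highest in all 3 libraries and the 3p forms stay under 5 RPM; 2 forms have no DMSO 22 h point because they are not listed in that table.

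To assess the late response, DOX 22 h was set against DMSO 22 h. The 5p arm as a whole was nearly level, with 42037 normalised reads in DOX 22 h and 39545 in DMSO 22 h, a ratio of 1.06 (1.05 to 1.08). When the libraries were scaled by their total listed reads in place of the size factors, the ratio was 1.01. None of the 6 members with at least 10 reads in both libraries passed a 1.5-fold difference, where 23.2% of the 1213 entries did, and the ratio of the arm lay within the 1.5-fold bounds that 10.2% of 167 well-covered arms passed.

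The forms did not share that ratio. The 21 nt form was 1.24 times as high in DOX 22 h as in DMSO 22 h (1.21 to 1.27), above the ratio of the whole arm. The 20 nt form had a ratio of 1.01 (0.987 to 1.03) and the 19 nt form 0.968 (0.935 to 1.00), both with intervals below the arm's ratio. The 18 nt form, at 0.999, the 17 nt form, at 0.994, and the 16 nt form, at 0.797 (0.515 to 1.23), had intervals that held the arm's ratio. Reads of the 21 nt form per read of the 20 nt form were 0.622 (0.609 to 0.635) in DOX 22 h and 0.505 (0.493 to 0.517) in DMSO 22 h. The intervals did not overlap, and this ratio within a library does not depend on how the libraries are scaled. It does rest on the recovered reads. For the 19, 20 and 21 nt forms 3, 7 and 4 sets of whole reads met the deposited means, and the set nearest to the authors' fitted levels was taken. The nearest sets left out had ratios of 0.0742 and 10.7 for the 19 nt form, 0.6004 and 1.69 for the 20 nt form, and 0.491 and 3.49 for the 21 nt form, and the counting intervals do not cover this choice. The 19 nt form per read of the 20 nt form was 0.293 (0.285 to 0.301) in DOX 22 h and 0.304 (0.296 to 0.313) in DMSO 22 h, with intervals that overlapped.

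**Figure D2:**
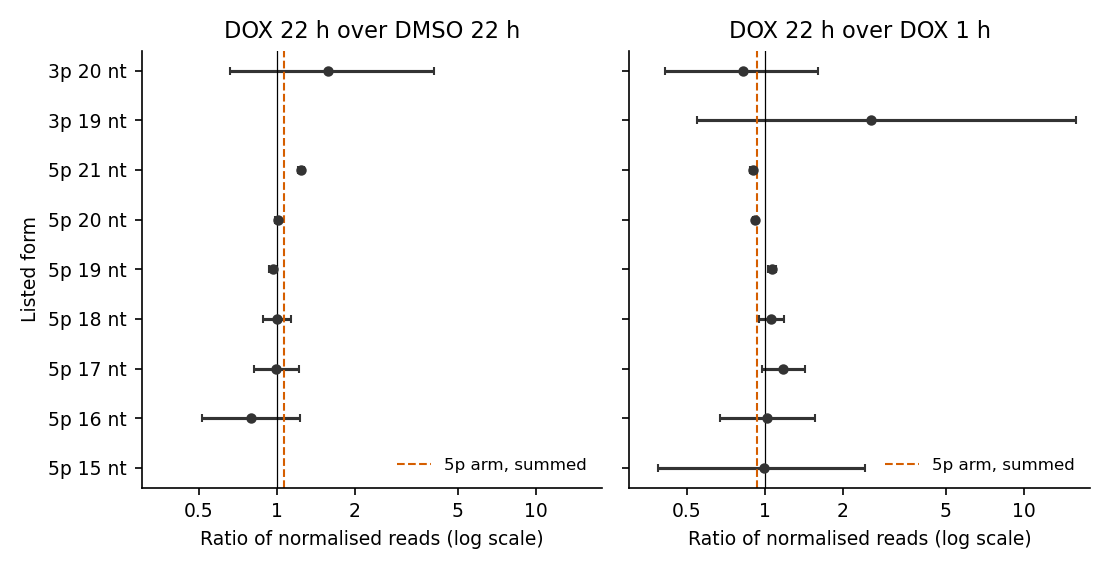
Ratio of normalised reads for each mir-21 form (log axis), DOX 22 h over DMSO 22 h on the left and DOX 22 h over DOX 1 h on the right, with 95% counting intervals; the dashed line is the summed 5p arm (1.06 and 0.933). The 21 nt form lies to the right of the arm on the left panel and to its left on the right panel.

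The ends of other miRNAs moved between these libraries as well. The mean length of the listed 5p reads of mir-21 was 20.1254 nt in DOX 22 h and 20.0615 nt in DMSO 22 h, a difference of -0.0639 nt (DMSO 22 h minus DOX 22 h). Among 84 arms with more than 1 entry and at least 1000 reads in each library, the median difference was -0.00350 nt, the quartiles were -0.0330 and 0.0393 nt, and 48 arms were shorter in DMSO 22 h and 36 longer. mir-21 was the arm with rank 15 of 84, counted from the most shortened.

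Between the 2 exposure times, the DOX 22 h library was set against DOX 1 h. The 5p arm had 50546 normalised reads at 22 h and 54177 at 1 h, a ratio of 0.933 (0.922 to 0.944). Scaling by total listed reads gave 0.931. None of the 8 members with at least 10 reads in both libraries passed 1.5-fold, where 16.7% of 1322 entries did, and 2.4% of 167 arms did.

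Here the longer forms had the lower ratios. The 21 nt form had a ratio of 0.897 (0.878 to 0.916), below that of the arm, and the 20 nt form 0.918 (0.902 to 0.933). The 19 nt form had 1.07 (1.03 to 1.10), the 18 nt form 1.06 (0.947 to 1.19) and the 17 nt form 1.18 (0.972 to 1.43), each with an interval above the arm's 0.933. The 16 nt form (1.02, 0.670 to 1.56) and the 15 nt form (0.989, 0.388 to 2.44) had intervals too wide to place. Reads of the 21 nt form per read of the 20 nt form were 0.636 (0.625 to 0.648) in DOX 1 h, with an interval that overlapped that of DOX 22 h. The 19 nt form per read of the 20 nt form was 0.252 (0.246 to 0.258) in DOX 1 h, below the 0.293 of DOX 22 h, and these intervals did not overlap. The mean length was 20.1634 nt in DOX 1 h, 0.0380 nt longer than in DOX 22 h, against a median of 0.0137 nt over the 84 arms, of which 57 were longer in DOX 1 h.

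For the early response, the table of DOX 1 h and DMSO 1 h was used as deposited, because its values were not taken back to single libraries. The table gives a mean per entry and a fitted level for each of its columns control and comparison. By its name the column control is DMSO 1 h, but in the other tables the column of that name held DOX 22 h, the first group in each comparison's name. The columns are therefore given by name, and no direction of the response to DOX is drawn from them. The 5p arm summed to 58488 in the column control and 58272 in the column comparison, less than a percent apart by the authors' fitted levels. The 20 nt form had 30596 and 29070, the 21 nt form 18124 and 20709, and the 19 nt form 8855 and 7590. The 21 nt form was thus the higher one in the column comparison while the 19 and 20 nt forms were higher in the column control. Per unit of the 20 nt form, the 21 nt form had 0.592 in control and 0.712 in comparison. Of the rarer forms, the 18 nt form had 635 and 608, the 17 nt form 219 and 203, and the 16 nt form 57.3 and 91.9. No error can be given for these values.

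**Figure D3:**
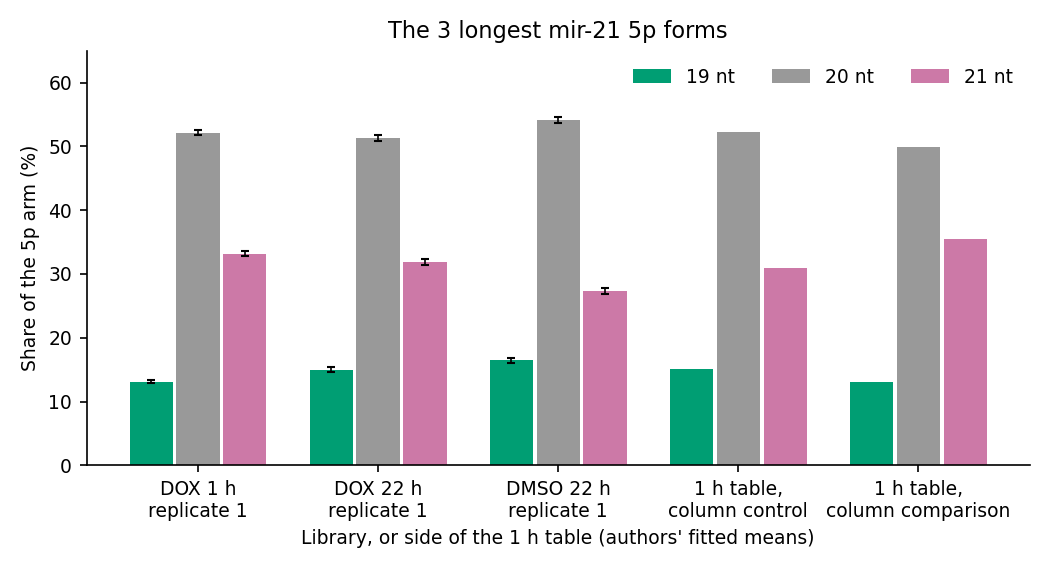
Share of the mir-21 5p arm (%, axis from 0) in the 19, 20 and 21 nt forms, for 3 libraries with 95% counting intervals and for both columns of the 1 h table (the authors' fitted levels, without error). The 21 nt form takes 27.4% in DMSO 22 h and 31.9% and 33.2% in the DOX 22 h and DOX 1 h libraries. In the 1 h table it takes 31.0% in the column control and 35.5% in the column comparison. Whichever of these columns is DMSO 1 h, its share is above that of the DMSO 22 h library. These are unlike measures, fitted levels of a separately normalised table and recovered reads of 1 library. No difference between the DMSO groups is drawn from them.

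The 3p arm was barely present. Its 20 nt form had 16 reads in DOX 22 h (3.90 RPM), 9 in DMSO 22 h (2.60 RPM) and 25 in DOX 1 h (4.75 RPM). The 19 nt form, listed only in the table of DOX 22 h and DOX 1 h, had 6 and 3 reads, and its ratio of 2.57 had an interval from 0.549 to 15.9. For the 20 nt form the ratio of DOX 22 h over DMSO 22 h was 1.58 (0.658 to 4.06) and that of DOX 22 h over DOX 1 h was 0.823 (0.411 to 1.60), so a difference in the 3p arm was not detectable at this depth. In the 1 h table this form had 27.7 in the column control and 29.6 in the column comparison.

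Over all listed forms, reads of the 5p arm outnumbered those of the 3p arm 2027 to 1 in DOX 22 h (1338 to 3234), 4144 to 1 in DMSO 22 h (2183 to 9062) and 2194 to 1 in DOX 1 h (1518 to 3303). The value of DMSO 22 h rests on 1 listed 3p form and those of the DOX libraries on 2. With the 20 nt 3p form and the 6 shared 5p forms alone, the ratio was 2786 (1715 to 4875) in DOX 22 h and 2457 (1664 to 3797) in DOX 1 h, which turned the order of the DOX libraries. The 3 intervals overlapped either way.

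The miRNA arms whose ratios were most like those of mir-21 5p were taken over the 167 arms with at least 100 reads in each library, by the distance between the pairs of log2 ratios (0.09 for DOX 22 h over DMSO 22 h and -0.10 for DOX 22 h over DOX 1 h in mir-21). Both ratios share the DOX 22 h library. The nearest were the arm of mir-424 at position 12 (0.13 and -0.10), that of mir-29a at position 43 (0.09 and -0.14) and that of mir-187 at position 72 (0.11 and -0.07), at distances of 0.0381, 0.0384 and 0.0389. mir-29a had 32071, 26749 and 45380 reads in DOX 22 h, DMSO 22 h and DOX 1 h, while mir-424 had 1403, 1143 and 1933 and mir-187 1538, 1269 and 2071. mir-21 sat in the crowded middle of the arms: 43 of the 166 others lay within a distance of 0.2, and the medians over all arms were 0.0019 and -0.04.

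**Figure D4:**
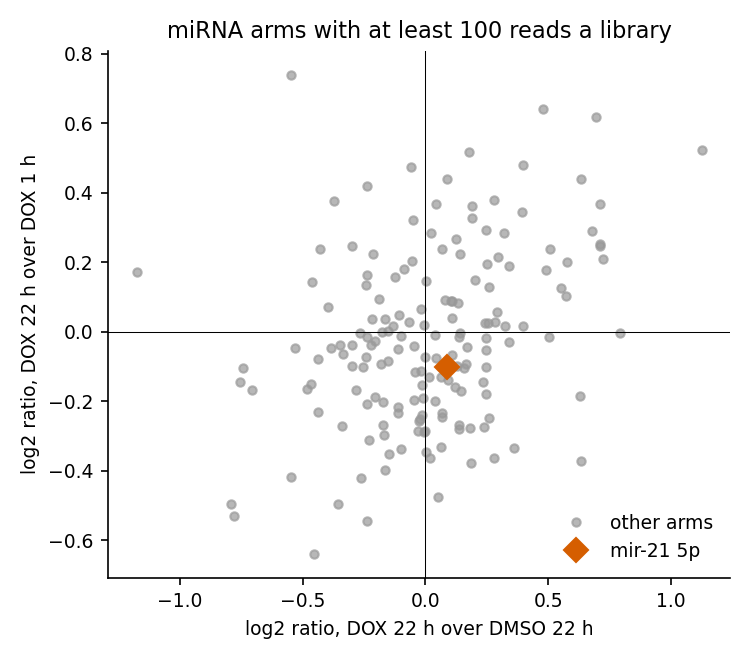
log2 ratios of 167 miRNA arms with at least 100 reads in each library, DOX 22 h over DMSO 22 h on the horizontal axis and DOX 22 h over DOX 1 h on the vertical one, with mir-21 5p as a diamond at 0.09 and -0.10. The axes share the DOX 22 h library, so the slope of the cloud is not a result.

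Other miRNAs known from cardiac stress, hypertrophy and fibrosis were taken from a list of 21 precursors, all of them listed. Several are copies that carry the same mature sequence, such as mir-24-1 and mir-24-2, so they do not count as separate miRNAs. For DOX 22 h over DMSO 22 h, 9 were higher and 12 lower, with a median log2 ratio of -0.05 against 0.02 over 224 precursors, of which 120 were higher. Past 1.5-fold were 2 of the 21, where 20.1% of the 224 precursors were. These were mir-34a, known as a target of p53, with 537 reads in DOX 22 h and 309 in DMSO 22 h (ratio 1.55, 1.34 to 1.78), and mir-212, a partner of mir-132 in cardiac hypertrophy, with 66 and 115 reads (0.510, 0.371 to 0.697). By total listed reads the ratio of mir-34a was 1.47, under 1.5-fold. For DOX 22 h over DOX 1 h, 5 were higher and 16 lower, with a median of -0.12 against -0.02 over the 224, of which 103 were higher and 121 lower, and 1 of the 21 passed 1.5-fold, where 11.6% of the 224 did. This was mir-222, with 43 and 29 reads (1.91, 1.16 to 3.17).

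The fibroblast and stromal precursors mark cells in which miR-21 is known to be high. The 4 of them had a median ratio of 1.01 for DOX 22 h over DMSO 22 h and 0.987 for DOX 22 h over DOX 1 h. Of these, mir-199a-1, mir-199a-2 and mir-199b share listed sequences and do not count as separate miRNAs. Their ratios were 1.001 to 1.017 in the first comparison and 0.971 to 1.02 in the second. mir-214 had 1.19 and 0.949, each with a counting interval that held 1. The endothelial mir-126 had a ratio of 0.776 for DOX 22 h over DMSO 22 h and 0.977 for DOX 22 h over DOX 1 h, and the smooth muscle and pericyte precursors did not move alike. mir-143 had ratios of 1.19 and 1.22 and mir-145 had 1.10 and 0.824. The part of these other cells in the level of mir-21 was not tested.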

How the data were processed

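Small RNA libraries (TruSeq Small RNA) of 12 samples were sequenced on an Illumina HiSeq 2500, read with the BaseSpace Small RNA v1.0 app and checked with MultiQC and FastQC, and the submitters' processing notes name the genome build hg19. The study refers miRNA names to miRBase, and the aligner and the miRBase release are not given in the sources used here. Of 3 deposited tables, 1 for each comparison, the mean of each entry was used as a deposited signal: reads divided by the size factors of DESeq2, averaged by the authors over both sides. The columns control and comparison hold the authors' fitted level of each side. The authors' columns of log2 fold change, standard error, p-value and adjusted p-value were left out.

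Decimal marks were lost in the tables of 1 h and of 22 h. The power of 10 was restored from the same entry in the table of DOX 22 h and DOX 1 h (1506 of 1610 and 1323 of 1335 entries). The row names of predicted miRNAs name the libraries behind 2 tables, replicate 1 of DOX 22 h, DMSO 22 h and DOX 1 h, so each mean there is a sum of whole reads times 2 fixed steps. Solving both tables together gave reads for 1323 of 1323 shared entries, of which 1216 had 1 solution. For the other 107, the 19, 20 and 21 nt forms of mir-21 among them, the solution nearest to the authors' fitted side levels was taken. Size factors were 1.06 and 0.943 for DOX 22 h and DMSO 22 h, and 0.882 and 1.13 for DOX 22 h and DOX 1 h. Simulated data were also run through the recovery. Their side levels followed the true ratios by a fixed factor, which is what the choice assumes. That run could therefore not test the choice between several solutions.

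Arms were groups of start positions more than 15 bases apart. Ratios of single entries were taken with no pseudocount and with 0.5. Entries named in the text were every mir-21 entry, the 3 arms nearest in level on each side, the 3 arms nearest in both ratios, and members of the stress and cell type lists; the stress members named are those past 1.5-fold. The members and lists were chosen with earlier results of these data known. No genome, hairpin or mature miRNA sequence was used here. Python 3 with numpy, pandas and scipy was used.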

Additional observations from a re-analysis of the deposited data

Results flagged for a closer look

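A predicted precursor, which is no member by name, carried the same sequences as the 5p arm of mir-21 in all 3 tables, with nearly the same values. Its entries summed to 58326 in the table of DOX 1 h and DMSO 1 h (6 entries), 40052 in that of DOX 22 h and DMSO 22 h (3 entries) and 51686 in that of DOX 22 h and DOX 1 h (3 entries), which was 99.9%, 100.1% and 100.4% of the mir-21 entries they match. In each case 1 of its rows has no sequence in its name and was set against the 20 nt form, by its level, after the values were seen.

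The matching values were close but not equal. In reads, the 21 nt form had 14211 under the predicted precursor and 14215 under mir-21 in DOX 22 h, 9945 and 10202 in DMSO 22 h, and 20396 and 20377 in DOX 1 h, so mir-21 held 50.01% (49.4 to 50.6), 50.6% (49.9 to 51.3) and 49.98% (49.5 to 50.5) of each pair. For the 19 nt form mir-21 held 49.0% (48.2 to 49.9), 49.0% (48.2 to 49.9) and 50.2% (49.4 to 51.0). The reads of the 19 nt form under the predicted precursor and under mir-21 were 6960 and 6694 in DOX 22 h. They were 6389 and 6147 in DMSO 22 h, and 8002 and 8067 in DOX 1 h. Exactly the same reads under both names would give equal counts, and these counts were not equal. Whether reads were divided between the names, or some of them listed under both, was not tested.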

How the results depend on the processing

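No paired analysis was possible because the reads recovered come from 1 library a group, and for the same reason no replicate could be left out. The alternatives that need a hairpin or mature sequence were not run. Of 47 alternative values, 28 stayed within the counting interval of the main value, which was taken on the summed means for the levels and was 1 SD over the members for the stress list. The level in the tables of DOX 1 h and DMSO 1 h, DOX 22 h and DMSO 22 h, and DOX 22 h and DOX 1 h was 29833, 21486 and 27074 from the most abundant entry alone, and 116735, 80856 and 104083 with the predicted precursor added (an alternative chosen after seeing the data), while that addition left the 5p ratios at 1.07 and 0.931.

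The 5p ratio of DOX 22 h over DMSO 22 h was 1.01 with total listed reads, 1.01 from the most abundant entry alone and 1.13 without it, and that over DOX 1 h was 0.918 from the most abundant entry and 0.9498 without it. From the forms with a single solution up to 1000, the ratios turned to 0.984 and 1.09; these are the 3 forms of 16 to 18 nt, which hold 1.84% of the arm in DOX 22 h. The share of the 21 nt form was 16.7% in all 3 libraries when entries were counted in place of reads. That value is fixed by the number of shared 5p forms and says nothing about the libraries. From the most abundant entry of each arm, the ratio of 5p to 3p was 1428 in DOX 22 h, 2245 in DMSO 22 h and 1281 in DOX 1 h. A 2-fold threshold left 5.85% and 4.69% of entries past it in the comparisons with DMSO 22 h and DOX 1 h. Depth limits the 3p arm, with 9 to 25 reads a library for its 20 nt form.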
